A study of Tupaia belangeri with 6 samples.

Results

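The genes described here encode the subunits of the proteasome, its assembly factors, its activators and its inhibitor. They were taken by name, as every locus called PSMA, PSMB, PSMC, PSMD, PSME, PSMF or PSMG followed by a number and nothing else, and 37 of the 95863 loci in the gene abundance tables met that rule. RNA was taken from the prefrontal cortex of adult tree shrews (Tupaia belangeri), 3 female (numbers 1, 3 and 4) and 3 male (numbers 1, 4 and 5), with 1 polyA-selected library per animal. No treatment, strain or genetic change is listed for any animal, and the study's sample overview lists every male at a greater age than every female, so sex and age cannot be told apart. Levels are in TPM, a measure of transcript abundance scaled for transcript length and for the library. Levels of different genes are set side by side on that scale, but some orders depend on the measure. Among genes with at least 1 TPM in every animal, mean read depth per TPM ran from 0.183 for PSMG1 to 1.35 for PSMB6. TPM does not keep the number of reads behind a value, for which only the mean depth over the locus is listed, and p-values measure only the spread between these 6 animals.

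The proteasome is the large protease that degrades proteins tagged with ubiquitin. Its barrel-shaped core is built of rings of alpha subunits (PSMA genes), which gate the entrance, and rings of beta subunits (PSMB genes), of which PSMB5, PSMB6 and PSMB7 carry the constitutive catalytic sites. A regulatory cap unfolds the substrate with a ring of ATPases (PSMC genes) and recognises and deubiquitinates it with non-ATPase subunits (PSMD genes). In cells exposed to interferon, PSMB8, PSMB9 and PSMB10 replace the catalytic subunits PSMB5, PSMB6 and PSMB7 to form the immunoproteasome, which favours peptides that fit MHC class I molecules. Neurons rely on the proteasome for the turnover of synaptic proteins, and the immune subunits are known mainly from immune and glial cells in brain.

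The tissue label was checked against marker genes. The 5 neuronal markers with a locus (of 6 in the list) summed to between 5613 and 7478 TPM, and the leukocyte markers to between 2.89 and 6.92 TPM, with CD3E listed at 0 in every library. The 3 oligodendrocyte markers with a locus had sums of 348 to 482 TPM in the females against 80.7 to 236 TPM in the males, but none of them passed the test for a sex difference. The 3 blood markers had sums of 1275 to 2542 against 62.7 to 101 TPM, and the haemoglobin genes HBQ1 and HBG were called while ALAS2 was not. The part of these cell types in the levels below was not tested, and in bulk tissue fewer cells of a type and less RNA per cell cannot be told apart. Loci to which the assembly gave no strand held 2.30% to 3.33% of all TPM in the females and male 4, against 5.16% in male 1 and 7.88% in male 5.

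Most proteasome genes were among the better expressed genes of the cortex. At least 1 TPM was reached in every animal by 22 of the 37 genes, and the mean of these 22 ran from 32.3 TPM for PSMA2 to 269 TPM for PSMD4, an 8.35-fold range. In mean coverage, the read depth over a locus, the same 22 ran from 8.38 for PSMG1 to 360 for PSMB6, a 43.0-fold range. Even the lowest of the 22 stood above 62.8% of the 12933 genes that reached 1 TPM in every animal. Together the 37 genes took 0.221% to 0.269% of each library's TPM. A further 9 genes were under 1 TPM in some animal but not at 0 in all of them, and 6 (PSMA3, PSMB11, PSMC1, PSMC2, PSMC6 and PSME2) were listed at 0 in every animal.

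For several of these subunits the signal stood under another name. The annotation also holds 37 loci whose names repeat a proteasome gene with "li" and a number, called gene-like copies here, for 17 subunit names. Of these, 10 reached at least 10 TPM in every animal, and 18 were listed at 0 in every animal. All the copies together held 36.2% to 41.2% of the summed TPM of genes and copies in a library. For 15 subunit names there was both a locus of the plain name and at least 1 copy, and for 9 of these (PSMA3, PSMA4, PSMA5, PSMA6, PSMB2, PSMC1, PSMC2, PSMC5 and PSMD8) the strongest copy exceeded the plain-named locus in all 6 animals. Of the 6 genes listed at 0 in every animal, PSMA3, PSMC1 and PSMC2 had such a copy, PSMC6 had copies of at most 2.98 TPM, and PSMB11 and PSME2 had none. Whether the copy is the functional gene was not tested, and reads may be shared between loci of similar sequence in a way that the tables do not show.

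**Figure D1:**
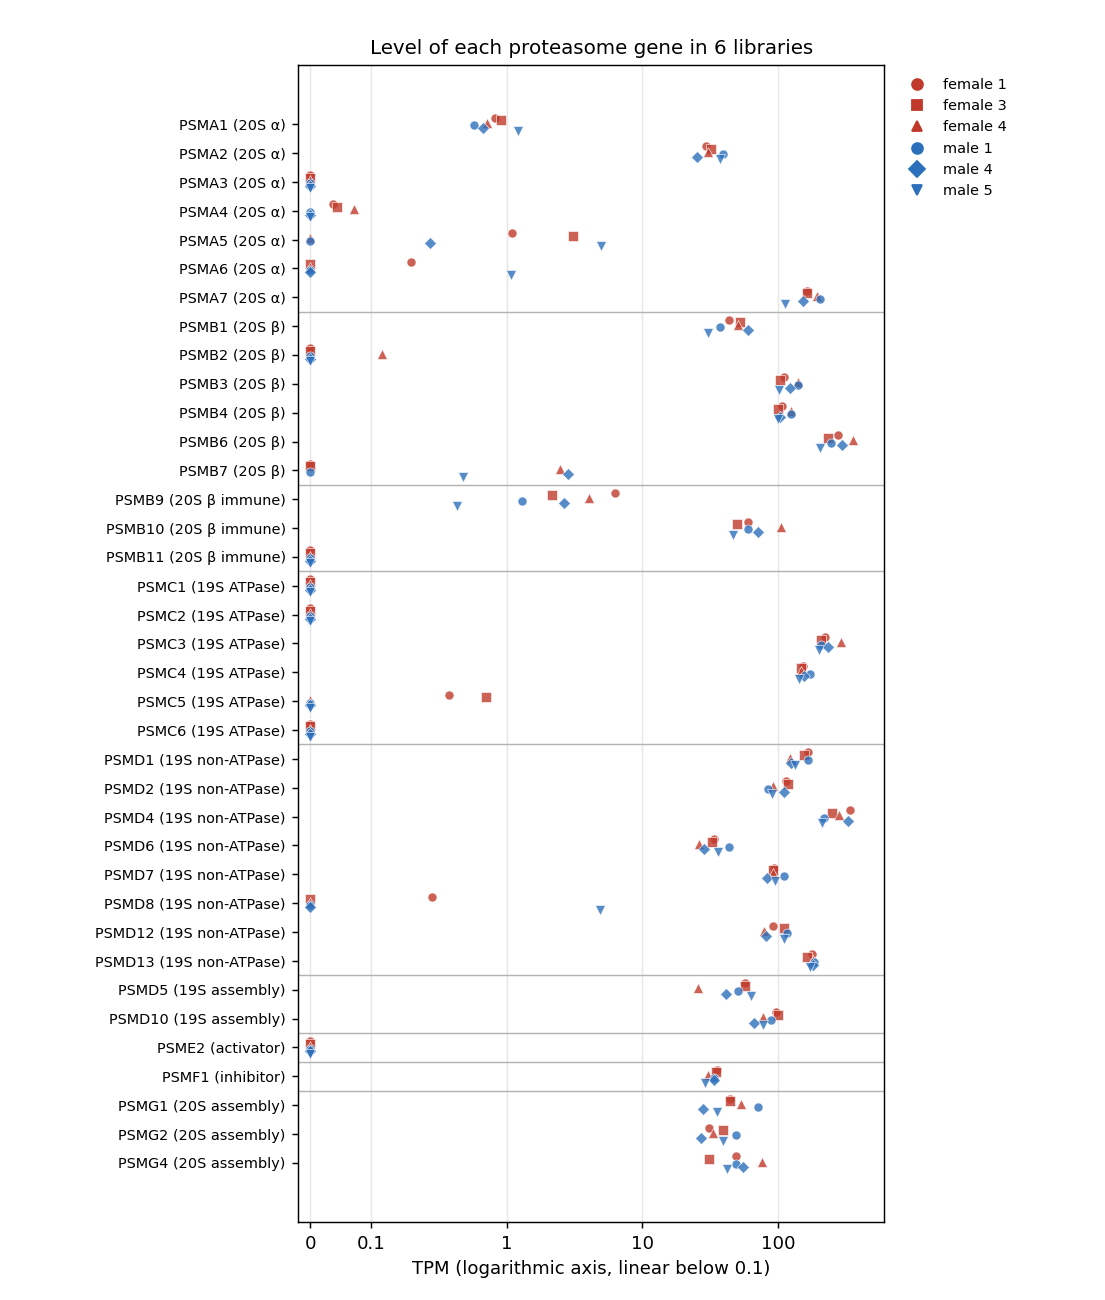
TPM of each of the 37 proteasome genes (horizontal axis, logarithmic and linear below 0.1 TPM) in the 3 female (red) and 3 male (blue) libraries, with 1 point per library and the structural groups separated by lines. The 22 genes at 1 TPM or more in every library sit between 25.3 and 355 TPM, and the others between 0 and 6.26 TPM.

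In the alpha ring, PSMA7 and PSMA2 were the 2 plain-named genes with a clear signal. PSMA7 (chromosome 9, positions 49615611 to 49623527 of the TS_3.0 assembly, plus strand) was at 164, 164 and 194 TPM in females 1, 3 and 4 and at 202, 153 and 112 TPM in males 1, 4 and 5. Both its highest and its lowest value came from males, and the sexes overlapped. PSMA2 (chromosome 5, positions 23681883 to 23704739) was lower, at 29.1, 32.2 and 30.1 TPM in females and 39.5, 25.3 and 37.3 TPM in males. PSMA1 had low values under any name, at 0.574 to 1.22 TPM for the plain-named locus and at most 0.387 TPM for its strongest copy. Whether these values measure the PSMA1 transcript was not tested.

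The other alpha subunits were carried by copies. PSMA6li4 had 187 to 347 TPM over a span of 42090 bp on chromosome 4, while the locus named PSMA6 spanned 717 bp on chromosome 11 and reached at most 1.08 TPM. PSMA4li1 had 133 to 197 TPM against at most 0.0715 TPM for PSMA4. PSMA5li1 had 78.9 to 116 TPM against 0 to 4.91 TPM for PSMA5. PSMA3li1 had 37.9 to 70.2 TPM, with PSMA3 listed at 0. Counted under either name, 6 of the 7 alpha subunits with a locus reached 10 TPM in every animal.

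Among the constitutive beta subunits, PSMB6, a catalytic subunit with caspase-like activity, was the highest. Its locus (chromosome 15, positions 27601130 to 27603263, minus strand) was at 275, 231 and 355 TPM in females 1, 3 and 4 and at 246, 294 and 202 TPM in males 1, 4 and 5. PSMB3 and PSMB4, structural subunits of the beta ring, averaged 120 ± 16.9 and 109 ± 11.8 TPM (SD, n = 6), and their ranges of 102 to 140 and 99.5 to 125 TPM overlapped. PSMB1, another structural subunit, was lower, at 43.2, 52.6 and 50.8 TPM in females 1, 3 and 4 and at 37.1, 59.8 and 30.6 TPM in males 1, 4 and 5, and did not reach their ranges. PSMB2 was at 0 except for 0.120 TPM in female 4, while PSMB2li1 was at 39.4 to 54.3 TPM in the 6 animals.

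PSMB7, the subunit with trypsin-like activity, had low values under either name, which may not measure its transcript. It was listed at 0 in females 1 and 3 and male 1, at 2.48 TPM in female 4, at 2.82 TPM in male 4 and at 0.475 TPM in male 5. Its copy was listed at 0 in every animal, so no locus of that name carried a level like that of the other beta subunits. PSMB5 and PSMB8 were not analysed here.

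**Figure D2:**
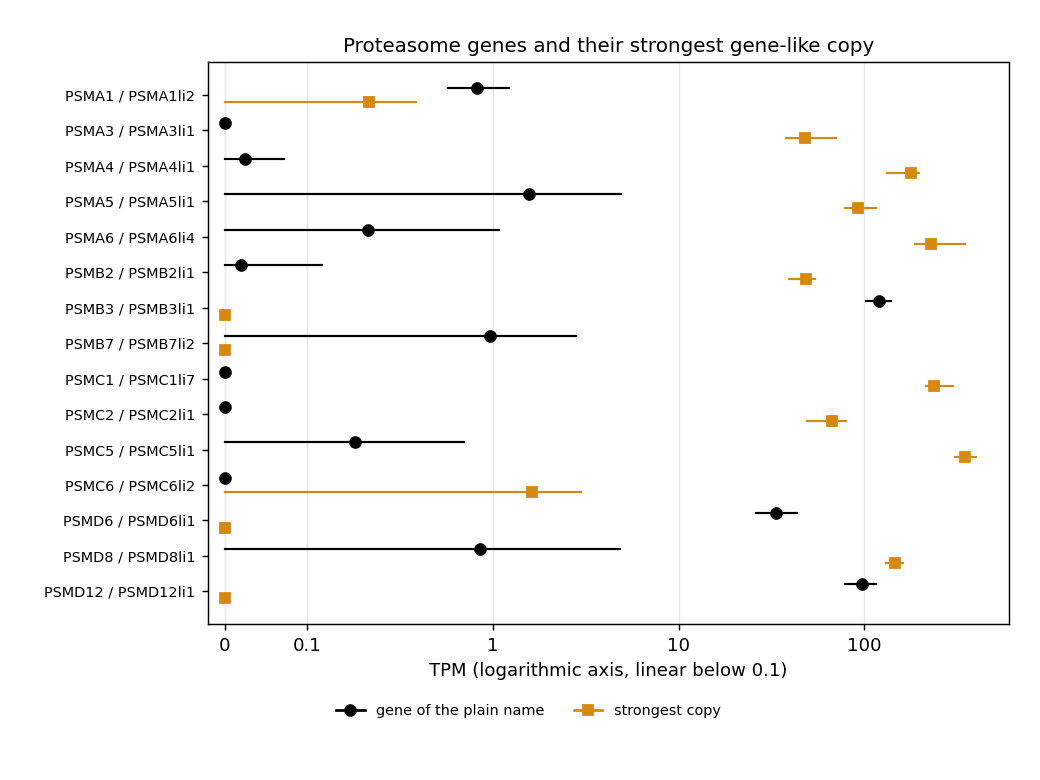
TPM (horizontal axis, logarithmic and linear below 0.1 TPM) of the 15 proteasome genes that have at least 1 gene-like copy (black circles) and of the strongest copy of each (orange squares). Symbols are means of 6 animals and lines run from the lowest to the highest animal. In 9 of the 15 the copy lies above the plain-named locus in every animal, and PSMB3, PSMD6 and PSMD12 show the opposite, with copies listed at 0.

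The 2 immune catalytic subunits analysed stood far apart from each other. PSMB10 (chromosome 21, positions 8506855 to 8518250, minus strand), which takes the place of PSMB7 in the immunoproteasome, was at 60.0, 49.8 and 105 TPM in females 1, 3 and 4 and at 59.7, 70.5 and 46.4 TPM in males 1, 4 and 5. PSMB9 (chromosome 3, positions 127217114 to 127229527, minus strand), which takes the place of PSMB6, was at 6.26, 2.16 and 4.02 TPM in the females and at 1.30, 2.66 and 0.434 TPM in the males. PSMB10 was thus 9.59 to 45.8 times as high as PSMB9 in TPM within 5 of the animals and 107 times as high in male 5. Male 5 was the lowest library for both genes. PSMB11, the catalytic subunit known from thymic epithelium, was listed at 0 in every animal.

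The paired subunits were compared within each animal on the log2(TPM + 1) scale. PSMB6 exceeded PSMB9 in 6 of 6 animals, by a mean log2 difference of 6.30 ± 0.640 (SD, n = 6, exact two-sided sign-flip permutation test, p = 0.03125, adjusted p = 0.03125, the smallest that 6 animals can give). The TPM ratio of PSMB6 to PSMB9 ran from 43.9 in female 1 to 465 in male 5. For the other pair, the locus named PSMB7 was below PSMB10 in 6 of 6 animals, by a mean log2 difference of -5.28 ± 0.678 (SD, n = 6, same exact test, p = 0.03125, adjusted p = 0.03125). PSMB7 was listed at 0 in 3 animals, so the size of that difference is set largely by the pseudocount and no ratio is given. It was -7.28 and -9.0 with pseudocounts of 0.1 and 0.01 and -3.81 on FPKM, with the same direction. The values may not measure the PSMB7 transcript, which was not tested. No order of the constitutive and the immune subunit is therefore read from this pair. Of 5 pairs planned only these 2 could be run, since at least 1 gene of each of the others was not analysed here.

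The size of these gaps depended on the measure. PSMB6 was 3.39 to 4.65 times as high as PSMB10 in TPM, but 11.4 to 15.7 times as high in the coverage column, the mean read depth over a locus. In coverage, PSMB6 was 91.7 to 484 times and PSMB10 7.13 to 32.6 times as high as PSMB9. The coverage of PSMB10 was 16.9 to 44.8 reads per base and that of PSMB9 0.518 to 5.95 reads per base, so the PSMB9 values rest on low coverage. PSMB9 also overlaps TAP1, on the other strand, over 174 bp and shares its span with HLA-DMB, and PSMB10 overlaps PSKH1 on the other strand. No source used here says that the libraries keep the strand, so reads in such overlaps may not be assigned to one gene with certainty.

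Genes that act with the immunoproteasome in antigen presentation were also at unequal levels. B2M, the light chain of MHC class I molecules, was at 194 to 262 TPM. TAP1, a subunit of the transporter that carries proteasome-made peptides into the endoplasmic reticulum, was at 2.17 to 4.21 TPM, a range that overlapped that of PSMB9. The interferon-responsive transcription factor IRF1 was at 0.685 to 2.10 TPM. None of these 3 genes passed the test for a sex difference. Microglial markers, 6 of 8 with a locus, summed to between 162 TPM in male 5 and 304 TPM in male 4, and their part in the PSMB9 and PSMB10 levels was not tested.

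**Figure D3:**
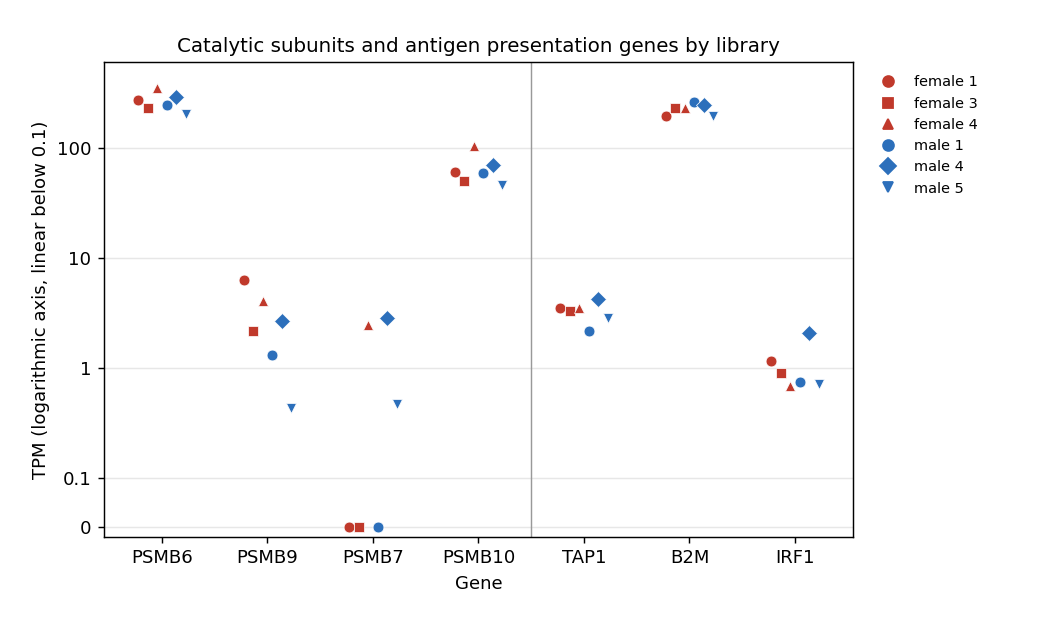
TPM (vertical axis, logarithmic and linear below 0.1 TPM) of the catalytic subunit genes PSMB6, PSMB9, PSMB7 and PSMB10 (left of the line) and of 3 genes of antigen presentation and interferon signalling (right of the line), with 1 point per library. PSMB6 lies above PSMB9, and PSMB10 above the locus named PSMB7, in each of the 6 libraries.

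In the ATPase ring of the cap, PSMC3 and PSMC4 were the plain-named genes with a signal. PSMC3 (chromosome 17, positions 40198375 to 40206059, minus strand) was at 223, 208 and 287 TPM in females 1, 3 and 4 and at 206, 231 and 198 TPM in males 1, 4 and 5. PSMC4 (chromosome 27, positions 15137339 to 15159233, plus strand) was lower and steadier, at 152, 147 and 148 TPM in females and 171, 155 and 142 TPM in males. The lowest PSMC3 library was above the highest PSMC4 library. PSMC5li1 was at 306 to 400 TPM, the highest mean of any proteasome gene or copy in these tables, against at most 0.703 TPM for the 1351 bp locus named PSMC5. PSMC1li7 was at 215 to 300 TPM and PSMC2li1 at 49.2 to 79.3 TPM, with PSMC1 and PSMC2 listed at 0. For PSMC6 the plain-named locus was listed at 0 and its strongest copy reached at most 2.98 TPM.

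The non-ATPase subunits of the cap included 7 plain-named genes with a signal, at means from 33.4 to 269 TPM. PSMD4, a ubiquitin receptor (chromosome 7, positions 79264415 to 79346363, minus strand), was at 337, 248 and 278 TPM in females 1, 3 and 4 and at 217, 326 and 209 TPM in males 1, 4 and 5. PSMD6 (chromosome 23, positions 36957710 to 36983865, minus strand) was the lowest of the 7 with a signal, at 33.8, 32.4 and 26.1 TPM in females and 43.5, 28.3 and 36.1 TPM in males. Between them lay PSMD13 at 175 ± 7.31 TPM, PSMD1 and PSMD2, the large scaffold subunits, at 144 ± 20.2 and 101 ± 14.3 TPM, PSMD12 at 97.6 ± 16.1 TPM, and PSMD7 at 93.7 ± 9.05 TPM (SD, n = 6). PSMD8 was listed at 0 in females 3 and 4 and males 1 and 4, at 0.281 TPM in female 1 and at 4.86 TPM in male 5, while PSMD8li1 was at 131 to 162 TPM. PSMD4 and PSMB4 lie 156.6 kb apart on chromosome 7, and their highest libraries differed.

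The assembly factors with a locus averaged between 36.3 TPM for PSMG2 and 84.5 TPM for PSMD10. The chaperones of the core, PSMG1, PSMG2 and PSMG4, averaged 45.9 ± 15.0, 36.3 ± 7.58 and 50.4 ± 15.2 TPM (SD, n = 6). PSMG4 (chromosome 30, positions 3511212 to 3519941) was at 49.2, 31.1 and 76.4 TPM in females 1, 3 and 4 and at 48.6, 55.1 and 41.9 TPM in males 1, 4 and 5. PSMG2 (chromosome 12, positions 67217073 to 67237639) was at 31.1, 38.9 and 32.8 TPM in females and 48.5, 27.2 and 39.2 TPM in males. The females held both extremes of PSMG4 and the males both extremes of PSMG2. Of the chaperones of the cap, PSMD10 (gankyrin) was at 96.0, 99.9 and 77.4 TPM in females and 89.1, 66.7 and 77.8 TPM in males. PSMD10 was the only one of the 37 on the X chromosome (positions 84182420 to 84199664, minus strand). PSMD5, the other cap chaperone, was at 57.2, 56.5 and 25.6 TPM in females and at 50.2, 41.0 and 63.2 TPM in males, and female 4 lay below every other animal.

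The inhibitor PSMF1 (chromosome 9, positions 77581225 to 77639151, plus strand), which binds the ends of the core, was at 35.2, 34.7 and 30.5 TPM in females and 33.8, 33.9 and 29.0 TPM in males, one of the narrower ranges of the 22. Of the activator that caps the core without ATP, PSME2 (chromosome 16, a 675 bp span) was listed at 0 in every animal. PSME1li1 was at 42.2 to 61.4 TPM on chromosome 4, and no locus with the plain name PSME1 was analysed here. PSMA8, PSMD3, PSMD9, PSMD11, PSMD14, PSME3, PSME4 and PSMG3 were likewise not analysed here under their plain names. Counting genes and copies together, 32 of the 48 names in the proteasome list had a locus at 10 TPM or more in every animal, 22 under the plain name and 10 under a copy name.

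Ordered by mean TPM, the 22 genes formed an almost continuous series. Of the 21 neighbouring pairs in that order, 20 overlapped in their ranges over the 6 animals, and only PSMC3 and PSMD13 did not. The place of some genes depended on the measure. PSMB6, PSMC3 and PSMD13 were ranked 2, 3 and 4 by TPM and 1, 2 and 3 by mean coverage, whereas PSMD4 was ranked 1 by TPM and 12 by coverage. The ratio of mean coverage to mean TPM was 1.35 for PSMB6 and 0.222 for PSMD4, and was lowest for PSMG1 at 0.183. An overlap with a locus on the opposite strand was found for 18 of the 22 genes. The share over all genes was not computed, and the part of such overlaps in these ratios was not tested.

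The spread between animals also differed among the 22. The coefficient of variation over the 6 animals ran from 4.17% for PSMD13 to 32.8% for PSMG1, with a median of 16.4%. PSMD13, a cap subunit, was at 176, 163 and 181 TPM in females and 182, 179 and 170.4 TPM in males, so its highest library was 1.12 times its lowest. PSMG1 was at 43.8, 43.7 and 53.3 TPM in females and 71.0, 28.0 and 35.2 TPM in males, a 2.53-fold range that came from males 1 and 4. PSMB10, PSMG4 and PSMD5 were next, with coefficients of variation of 32.4%, 30.1% and 28.0%. In female 4, PSMB10 and PSMG4 were at their highest and PSMD5 at its lowest, at log2 ratios to the gene's own mean of 0.68, 0.60 and -0.93.

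Male 1 and male 5 stood at opposite ends of the 22 genes. Male 1 held the highest value of 10 of them and the lowest of 1, and male 5 the highest of 1 and the lowest of 9. Over the 12933 genes at 1 TPM or more in every animal, male 1 held the highest value of 15.7% and male 5 the lowest of 17.6%. The median log2 ratio of the 22 to their own mean was 0.12 in male 1 and -0.15 in male 5, and between -0.044 and -0.0012 in the other 4 animals. These 2 males also had the largest share of TPM in loci without a strand. Rescaling TPM over loci with a strand moves all genes of a library alike, and on that scale male 1 held the highest value of 13 of the 22 and of 17.4% of all genes. On the same scale male 5 held the lowest value of 5 of the 22 and of 14.2% of all genes, beside 5 of the 22 each for female 4 and male 4 and 6 for female 3.

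**Figure D4:**
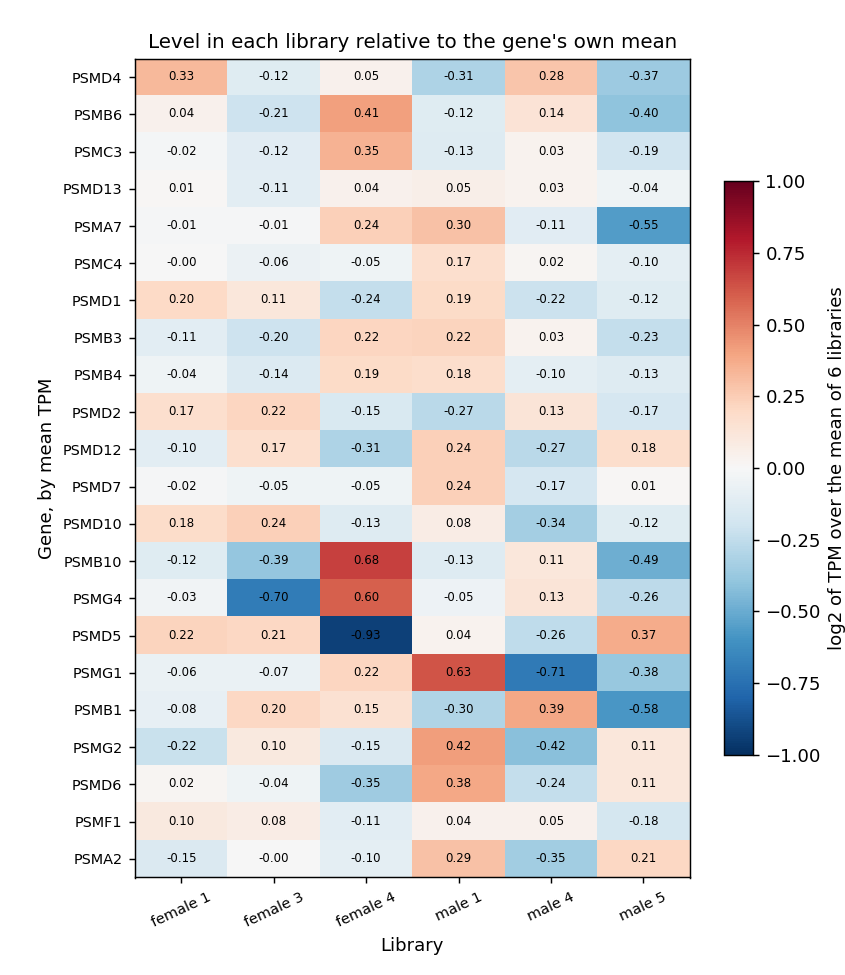
Level of the 22 proteasome genes at 1 TPM or more in every library, as the log2 of TPM over the gene's own mean of the 6 libraries (colour and printed value). Genes are ordered from the highest mean at the top. The largest departures are -0.93 for PSMD5 in female 4 and -0.71 for PSMG1 in male 4.

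The design sets females against males, and no proteasome gene passed the test for a sex difference. The test took genes that reached 0.1 TPM in 3 animals or more, as 26 of the 37 did, 25 on autosomes and PSMD10 on X. None of the 26 was called at an adjusted p under 0.1 (limma on log2(TPM + 1), adjusted p from 0.925 to 0.999), none had an unadjusted p under 0.05, and none had sexes that did not overlap. In the same fit, 0.0143% of the 27996 autosomal genes and 0.134% of the 744 X-linked genes were called. An unadjusted p under 0.05 was reached by 5.04% of the autosomal and 3.76% of the X-linked genes, and sexes that did not overlap were found for 9.81% and 9.54%. On the log2(TPM + 1) scale the female minus male difference was positive for 16 and negative for 10 of the 26, with a median of 0.037 against -0.032 over all genes tested. With 3 animals per sex, the absence of a call does not show equal levels.

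For the 22 genes with a level in every animal, female minus male differences lay between -0.21 for PSMD5 and 0.25 for PSMB1 in log2(TPM + 1), and their 95% intervals within -0.946 to 0.902. The female mean of PSMB1 was 48.9 ± 5.0 TPM and the male mean 42.5 ± 15.3 TPM (SD, n = 3 each), a log2 difference of 0.25 (SE 0.254) with an adjusted limma p of 0.938. That difference was 0.52 without male 4, 0.047 without male 5 and -0.0084 with the animal number as a block. In the block fit only animals whose number occurs in both sexes inform the difference, so female 3 and male 5 do not. For PSMD5, female 4 alone lay far below the others, and the female mean of 46.4 ± 18.0 TPM and the male mean of 51.5 ± 11.2 TPM (SD, n = 3 each) overlapped. Without female 4 the log2 difference of PSMD5 turned from -0.21 to 0.16. X-linked PSMD10 had a log2 difference of 0.22 (SE 0.184, limma, adjusted p = 0.967). PSMD13 had the tightest interval of the 26, from -0.382 to 0.316 around a log2 difference of -0.03.

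With every animal and a pseudocount of 1, PSMB9 showed the largest difference of the 26 genes, though not under every alternative. Its female mean was 4.15 ± 2.05 TPM and its male mean 1.47 ± 1.12 TPM (SD, n = 3 each), a log2 difference of 1.08 (SE 0.578, 95% interval -0.234 to 2.40, limma, adjusted p = 0.925). Female 3, at 2.16 TPM, lay below male 4, at 2.66 TPM, so the sexes overlapped. The female mean stayed higher under all 19 alternatives of processing and sample choice, with log2 differences from 0.59 to 1.71 and adjusted p-values from 0.530 to 1.0. Without male 4, PSMB9 had a log2 difference of 1.42 (limma, adjusted p = 0.530) and PSMB1 one of 0.52 (adjusted p = 0.497), and both were then under 0.05 before adjustment, as were 9.38% of all genes in that fit. PSMG1 had a log2 difference of 0.18 with every animal, of -0.095 without male 4 and of 0.063 without male 5. Without male 1, it had one of 0.56 (limma, adjusted p = 0.614) and was likewise under 0.05 before adjustment, as were 7.56% of all genes in that fit. The summed blood and oligodendrocyte markers, given above, did not overlap between the sexes. Of the oligodendrocyte markers taken singly, MAG did not overlap, whereas MOG and MBP did. Over single autosomal genes, 9.81% did not overlap. The part of these markers in the PSMB9 values was not tested.

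**Figure D5:**
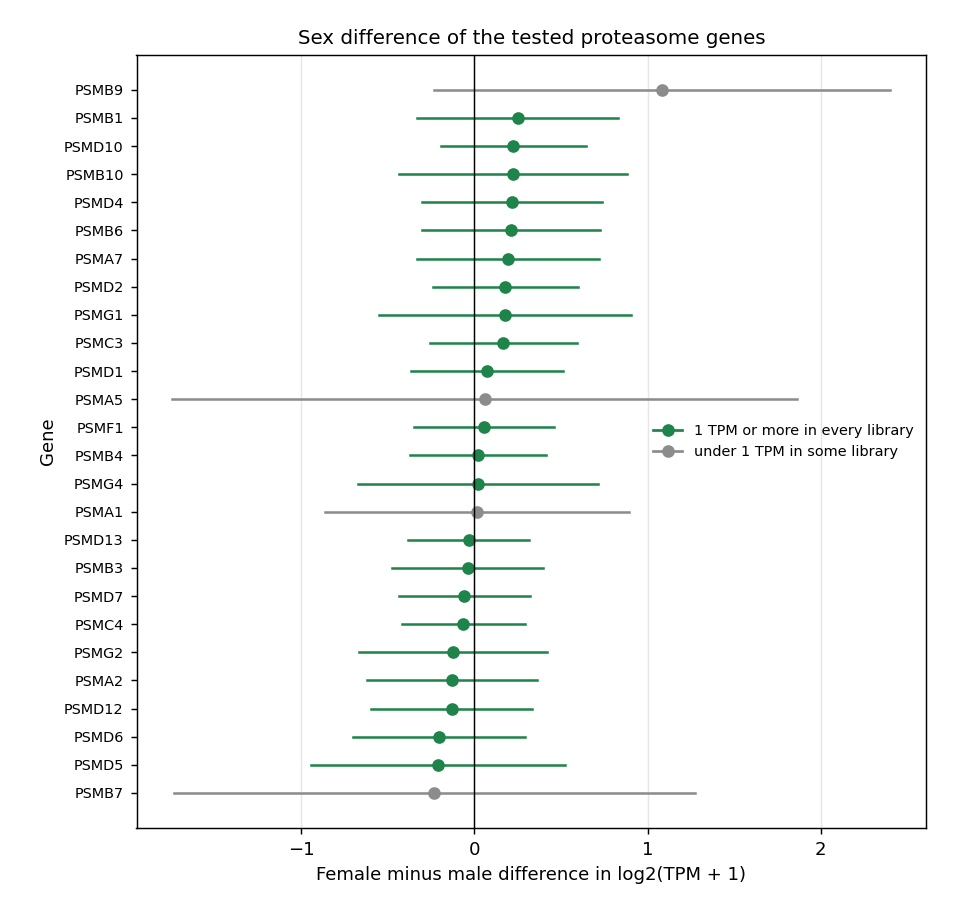
Female minus male difference in log2(TPM + 1) of the 26 proteasome genes tested, ordered by size (horizontal axis), with points for the limma estimate and lines for its 95% interval, green for genes at 1 TPM or more in every library and grey for the others. Every interval includes 0, and the grey genes PSMB9, PSMA5, PSMB7 and PSMA1 include the widest.

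The gene-like copies gave no call either. Of the 37 copies 13 entered the test, none was called, none had an unadjusted p under 0.05 and none had sexes that did not overlap. The 10 copies at 10 TPM or more had differences between -0.20 for PSME1li1 and 0.17 for PSMA4li1 in log2(TPM + 1). When each gene was summed with its copies, 35 names passed the same filter, and again none was called.

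Genes that work with the proteasome gave no call. Of a list of 20 partners, 15 had a locus and 13 reached 1 TPM in every animal. ADRM1, a ubiquitin receptor of the cap, was at 230.4, 192 and 282 TPM in females and 141, 218 and 149.8 TPM in males. POMP, which matures the core, was at 88.2 to 151 TPM. NFE2L1, the transcription factor known to raise proteasome genes when the protease is inhibited, was at 79.1 to 130 TPM, and the segregase VCP at 127 to 178 TPM. None of the 14 tested partners was called (8 with a higher female and 6 with a higher male mean), although their summed TPM was 1319 to 1327 in females and 1169 to 1192 in males. From the list of 6 genes for ubiquitin and its activation, 5 had a locus and 2 were tested, UBB and UBA6, and neither was called. UBB, which encodes polyubiquitin, was at 1545, 1516 and 1674 TPM in females and at 2047, 1813 and 1790.1 TPM in males, so its sexes did not overlap, as for the 9.81% of autosomal genes given above, with a log2 difference of -0.25 and an adjusted limma p of 0.939.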

How the data were processed

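Per the labels and the study's methods, total RNA from prefrontal cortex was polyA-selected and sequenced as paired-end reads on an Illumina NovaSeq. The authors mapped the reads to TS_3.0 with HISAT2 (version 2.2.1), assembled transcripts per animal with StringTie (version 2.2.1), merged them with the reference annotation and measured each animal against the merged set. The deposited tables hold coverage (mean depth over a locus, not scaled), FPKM and TPM. The deposited TPM and FPKM are relative to the library. No counts are in the tables used here, so the study's count test was not repeated and no counting intervals were computed.

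TPM was summed over rows of a gene ID on a chromosome. Females were set against males on the log2(TPM + 1) scale over all genes with limma (version 3.58.1, R 4.3.3), with a mean-variance trend, for genes at 0.1 TPM or more in 3 or more of 6 animals. P-values were adjusted by Benjamini-Hochberg within autosomes and within X, with a threshold of 0.1. The Y-like segments of X and chromosome 26 were left out. Paired subunits were compared by exact sign-flip permutation. FPKM, other pseudocounts, filters, scalings, a replicate block and leaving out each animal were alternatives. Python 3.11.15, numpy 2.4.6, pandas 2.3.3, scipy 1.17.1 and matplotlib 3.10.9 were used.

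Every gene of the name rule may be named. Values per animal are given for catalytic subunits, the highest and lowest gene of each structural group (the lowest with a signal, where others were at or near 0), the activator and the inhibitor. Values per animal of PSMD13, PSMG1, ADRM1 and UBB were added after they were seen. Part of the interferon and antigen presentation list is not reported here. The genes and lists were chosen with earlier results of these data known.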

Additional observations from a re-analysis of the deposited data

How the results depend on the processing

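The count of proteasome genes called between the sexes was 0 under all 19 alternatives, and the count with an unadjusted p under 0.05 ranged from 0 to 2 when an animal was left out and was 0 otherwise. Over all genes that share was 5.01% with every animal, 9.38% without male 4 (2 proteasome genes) and 7.56% without male 1 (1 proteasome gene). Of 489 single-gene differences under the alternatives, 39 over 17 genes took the other sign, none of them past the threshold. The calls over all genes fell from 5 to 1 without the trend and to 3 without any 1 of females 1, 3 and 4 or male 5, and rose to 8 without male 4. The replicate block, with the animal number as a term, gave 0 proteasome genes and 3 genes over all. In that fit female 3 and male 5, whose numbers occur in 1 sex only, do not inform the sex difference. Whether a number shared by a female and a male marks a pair or a batch is not known. The deviations of same-numbered animals correlated at 0.00098 for number 1 and 0.038 for number 4. Over all combinations of a female and a male the correlations ran from -0.059 to 0.063. With so few animals these values cannot settle the question. Summing each gene with its copies was an alternative chosen after seeing the data. The log2 difference of PSMB6 and PSMB9 was 6.88 and 6.97 with pseudocounts of 0.1 and 0.01 and 5.35 on FPKM, and that of PSMB7 and PSMB10 was -7.28, -9.0 and -3.81. Leaving out an animal gave 6.13 to 6.51 and -5.49 to -5.15, at an exact permutation p of 0.0625, the smallest that 5 animals allow. Read numbers cannot be had from TPM, and values of single TPM, as for PSMB9 and PSMB7, are the least certain.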
